A study of Homo sapiens with 12 samples.

Results

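The human genome carries its HOX genes in 4 clusters, and all 39 of them were found among the 55765 gene symbols counted in 12 RNA-seq libraries of differentiating neuroblastoma cells. Members were taken by symbol alone (HOXA, HOXB, HOXC or HOXD followed by the number of the paralogue group), which gave 11 genes of the HOXA cluster on chromosome 7, 10 of HOXB on chromosome 17, 9 of HOXC on chromosome 12 and 9 of HOXD on chromosome 2. The cells were SH-SY5Y, an established human line derived from SK-N-SH, which was itself grown from a bone marrow metastasis of a neuroblastoma, and all 12 libraries came from cells given all-trans retinoic acid (ATRA) for 7 days. In the co-treatment experiment, 3 treated libraries came from cells kept in hydrogen peroxide (H2O2) during those 7 days and 3 control libraries from cells given ATRA without H2O2. In the pre-treatment experiment, 3 treated libraries came from cells exposed to H2O2 in the 72 h before ATRA was added, and 3 control libraries from cells not exposed. The labels give the H2O2 dose as 10 mM, whereas the methods of the study give 10 micromolar. Per those methods, that dose was chosen from a range of micromolar doses as having the least adverse effects. The unit in the labels thus departs from the study's own account. No library of cells without ATRA was analysed here, so the data bear on HOX levels after ATRA and on the effect of H2O2, not on the response to ATRA. The whole experiment used 1 cell line, and the labels do not say that the replicates were separate cultures, so p-values measure the spread between these libraries only.

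HOX genes code for homeodomain transcription factors that give cells their position along the body axis. Within a cluster the order of the genes follows their use: genes at the 3′ end (low paralogue numbers) are switched on earlier and nearer the head, and genes at the 5′ end (high numbers) later and nearer the tail. Retinoic acid, bound by RAR and RXR receptors, is a well-known activator of the 3′ genes, Polycomb complexes keep the unused part of a cluster silent, and TALE homeodomain proteins (MEIS, PBX, PKNOX) bind DNA together with HOX proteins.

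The sequences shown here are the 250 bases before the annotated start of 4 genes, from RefSeq on GRCh38.p14 and on the plus strand. HOXC4 is shown because it led HOXC and shares this annotated start with HOXC5, HOXD8 because it was one of the most abundant members, and HOXD10 and HOXD11 because the level dropped between them. Capitals mark matches on either strand to 4 motifs, which are CCAAT of many promoters, the TATA box TATAAA, the hexamer AGGTCA that retinoic acid receptors bind, and TGATTNAT, a core bound by HOX together with PBX. The windows lie at chr12:54016638-54016887 for HOXC4, chr2:176129455-176129704 for HOXD8, chr2:176116528-176116777 for HOXD10 and chr2:176107030-176107279 for HOXD11.
HOXC4: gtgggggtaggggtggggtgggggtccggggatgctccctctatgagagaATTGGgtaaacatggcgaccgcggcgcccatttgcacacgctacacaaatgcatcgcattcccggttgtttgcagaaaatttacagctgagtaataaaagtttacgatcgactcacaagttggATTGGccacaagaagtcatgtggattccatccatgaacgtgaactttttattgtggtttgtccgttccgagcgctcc
HOXD8: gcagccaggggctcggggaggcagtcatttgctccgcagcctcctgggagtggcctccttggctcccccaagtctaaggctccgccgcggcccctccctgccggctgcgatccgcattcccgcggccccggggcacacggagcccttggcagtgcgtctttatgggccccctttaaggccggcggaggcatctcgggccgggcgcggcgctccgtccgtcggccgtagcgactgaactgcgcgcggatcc
HOXD10: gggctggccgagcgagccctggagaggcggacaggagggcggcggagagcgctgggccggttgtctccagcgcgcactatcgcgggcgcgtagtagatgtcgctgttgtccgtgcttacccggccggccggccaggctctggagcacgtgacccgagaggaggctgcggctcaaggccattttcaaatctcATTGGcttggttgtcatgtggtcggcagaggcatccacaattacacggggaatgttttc
HOXD11: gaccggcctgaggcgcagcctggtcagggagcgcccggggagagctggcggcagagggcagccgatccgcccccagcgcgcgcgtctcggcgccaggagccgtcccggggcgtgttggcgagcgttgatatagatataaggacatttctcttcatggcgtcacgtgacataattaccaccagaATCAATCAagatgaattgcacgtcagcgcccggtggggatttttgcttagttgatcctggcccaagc
The HOXC4 sequence holds 2 CCAAT matches on the minus strand and 50.8% G or C. HOXD8 holds none of the 4 motifs and 72.4% G or C, HOXD10 holds 1 CCAAT match, and HOXD11 holds 1 TGATTNAT match. Of the 39 genes, 20 have a window in the table used here. In their windows, which also take in a short stretch after the start, AGGTCA was not found, and so neither were its direct repeats with a spacer of 2 or 5 bases. Among the 34943 windows of all genes, 13.8% hold AGGTCA, 0.00286% its repeat with a spacer of 2 bases, 0.00572% that with a spacer of 5 bases, 34.6% CCAAT, 11.6% TATAAA and 2.82% TGATTNAT. A match is a run of letters and not a bound site, and the absence of one in so short a window says nothing about the receptor.

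The libraries held 27576276 to 98287391 reads on genes, and levels are given as CPM, which are counts divided by the library's total on genes and set to a common scale with TMM factors over the 12 libraries. The label SH-SY5Y was checked against markers of the noradrenergic type of neuroblastoma cell: 7 of the 8 markers were above the filter in every library, with HAND2 at 306 to 564 CPM, while TH, the enzyme that makes the catecholamine precursor, stayed at 0.0104 to 0.263 CPM. Of the 8 mesenchymal markers, 6 were above the filter in every library, their summed level was 264 to 429 CPM, and the defining factor PRRX1 was at 0 in 8 of the 12 libraries and at most 0.0751 CPM. The mesenchymal marker VIM rose in treated cells by 1.16 on the log2 scale after co-treatment (adjusted p = 0.0272 in edgeR's test) and by 2.42 over 6 libraries after pre-treatment (adjusted p = 0.0442), while no noradrenergic or neuronal marker was called in either. VIM was the 1 called of 7 mesenchymal markers tested, of which 6 were higher and 1 lower after co-treatment, and 4 higher and 3 lower after pre-treatment. The summed mesenchymal level overlapped between control and treated libraries, with 264 to 385 against 313 to 334 CPM in co-treatment. In pre-treatment it was 321 to 429 CPM in control and 324 to 335 CPM in treated libraries. Without pre-treatment control replicate 3, 1 noradrenergic marker was called higher and 4 lower, 3 mesenchymal markers were called higher, and 1 of 5 neuronal markers was called lower, in a comparison that called 26.1% of all genes. The part of these marker changes in the HOX levels was not tested. Some libraries stood apart. Pre-treatment control replicates 1 and 2 held 0.800 and 0.830 reads outside genes per read on a gene, where control replicate 3 held 0.200 and the other 9 libraries 0.263 to 0.462, and small structured RNAs took 1.59% and 2.88% of their counted reads, whereas they took 17.6% of those of control replicate 3 and 5.04% to 15.1% of the rest. Pre-treatment treated replicate 3 had 122 CPM of CYP26A1, the enzyme that breaks down retinoic acid and is induced by it, against 841 to 1796 CPM in the other 11 libraries. It was also lowest in CYP26B1 (21.5 CPM against 315 or more), in DHRS3 (101 against 346 or more), in CRABP2 (284 against 928 or more) and in the receptor RARB (64.2 against 134 or more). Results of the pre-treatment experiment are given over all 6 libraries and without control replicate 3, and those that lead also without treated replicate 3. Leaving out control replicate 3 was chosen with earlier results of these data known. On both measures above, control replicates 1 and 2 lay farther from the other libraries than control replicate 3. Without control replicate 3, the treated libraries (0.343 to 0.462 reads outside genes per read on a gene) face only these 2 controls. Treatment and this library property cannot be told apart in any call of that comparison.

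HOX expression in these cells came almost only from HOXD and HOXC, with HOXD8 (66151 counts), HOXD9 (54000) and HOXD3 (36974) the most counted. HOXD held 167191 of the 188512 counts on HOX genes (88.7%) and HOXC held 21280 (11.3%), whereas HOXA had 23 counts and HOXB 18 counts over all 12 libraries together. A total of 6 HOXA and 3 HOXB genes were never counted, and no HOXA or HOXB gene had more than 6 counts in a library. A count of 3 corresponds to 0.0311 to 0.107 CPM, depending on the library. The HOXA gene with the highest mean level per kilobase, HOXA5, had 1 count in co-treatment treated replicate 1, 4 in co-treatment treated replicate 2, 1 in pre-treatment treated replicate 1 and 0 in the other 9 libraries. HOXB7 led HOXB with 1 count each in co-treatment treated replicate 1 and pre-treatment control replicate 2 and 0 elsewhere. The few counts lay mostly in treated libraries, with 22 of 23 for HOXA and 16 of 18 for HOXB, where the treated libraries held 56.3% of all counted reads. This split was picked out after the values were seen and was not tested, and 12 of the HOXA counts were in pre-treatment treated replicate 3.

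**Figure D1:**
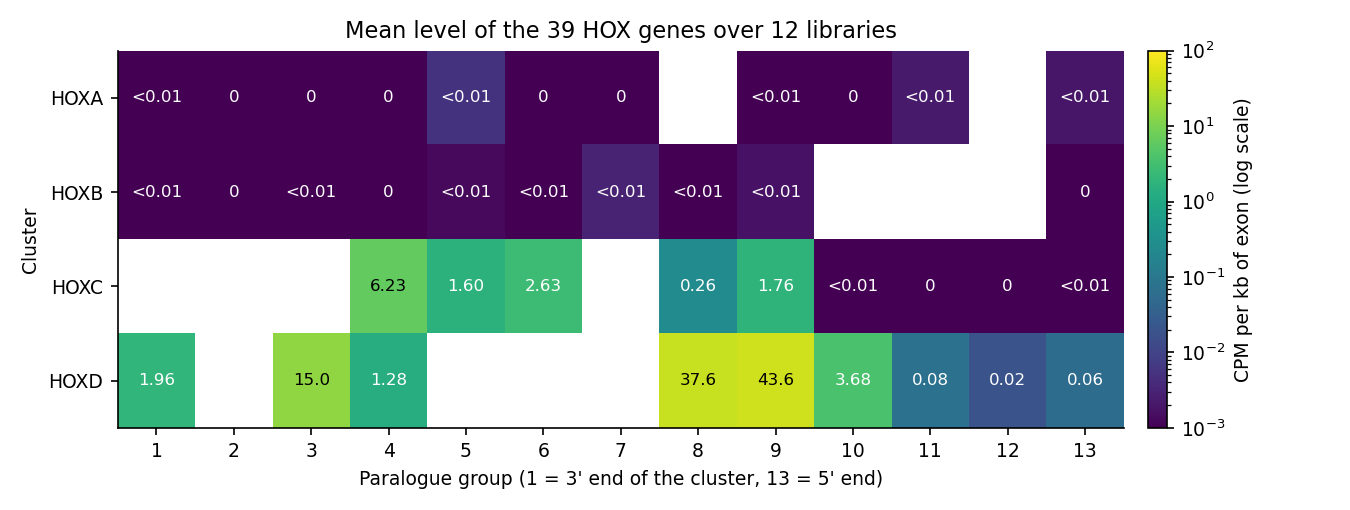
Mean level of each HOX gene over the 12 libraries in CPM per kilobase of exon, drawn as coloured tiles on a log scale with the value printed, with the clusters as rows and the paralogue groups as columns (3′ end at the left). Empty tiles are positions without a gene, and tiles at or below 0.001 share the darkest colour; HOXC ends after HOXC9, HOXD is high at HOXD8 and HOXD9 and drops after HOXD10, and HOXA and HOXB stay below 0.01.

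Levels of different genes were compared per kilobase of exon, using an annotation of the files' build hg19. HOXD9 had the highest mean level, 43.6 ± 10.1 CPM per kb (SD, n = 12), followed by HOXD8 with 37.6 ± 5.52 CPM per kb, and their ranges over the libraries overlapped although HOXD9 was above HOXD8 in 10 of 12. HOXD3 came next with 15.0 ± 2.90 CPM per kb, below HOXD8 and above HOXC4 in each of the 12 libraries, and HOXC4 led HOXC with 6.23 ± 1.86 CPM per kb. The next members were HOXD10 (3.68 CPM per kb), HOXC6 (2.63), HOXD1 (1.96), HOXC9 (1.76), HOXC5 (1.60) and HOXD4 (1.28), and each of these overlapped the gene before it in the order. HOXC8 was lowest of the 11 genes above the filter in all libraries, at 0.260 CPM per kb, and lay below HOXD4 in each library. Parts of these levels are uncertain where exons are shared: 67.3% of the exon length of HOXC5, 17.5% of that of HOXC4 and 16.1% of that of HOXC6 also belong to other genes on the same strand, and 60.1% of that of HOXD1 lies opposite antisense genes, and the strand setting of the counting is not given in the sources used here.

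Both clusters stopped within the 5′ part. In HOXC (chromosome 12, 54332615 to 54449814), HOXC9 had 1978 counts over the 12 libraries, while its 5′ neighbour HOXC10 had 1 count, HOXC11 and HOXC12 had none and HOXC13 had 1. In HOXD (chromosome 2, 176957449 to 177055635), the drop was less complete: HOXD10 had 6416 counts, HOXD11 had 92, HOXD12 had 26 and HOXD13 had 82. Per kilobase, total counts on HOXD10 were 59.3 times those on HOXD11, with which HOXD10 shares 18.2% of its exon length. Levels did not fall steadily from 3′ to 5′ in either cluster, since HOXD1 and HOXD4 lay below HOXD3, HOXD8 and HOXD9, and HOXC8 lay below HOXC9. By counts, groups 1 to 4 held 21.0% to 34.6% of HOX counts in a library, groups 5 to 8 held 35.1% to 44.6% and groups 9 to 13 held 26.6% to 38.4%.

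The co-treatment comparison asks how H2O2 given during differentiation changes expression. The 6 HOXD genes that could be tested had lower values in treated cells and the 5 HOXC genes were mixed, but no HOX gene passed the threshold. Of 22089 genes tested with edgeR's quasi-likelihood test, 0.598% were called (adjusted p under 0.05), and 0 of the 11 tested HOX genes were. An unadjusted p under 0.05 was found for 3 of the 11 HOX genes (HOXC5, HOXD3 and HOXD9) and for 8.15% of all genes tested. The median log2 fold change was -0.20 over the 11, 0.11 over the 5 HOXC genes and -0.23 over the 6 HOXD genes, against -0.01 over the 17977 genes above the filter in all 12 libraries. By position the medians were -0.22 for groups 1 to 4 (4 genes) and -0.05 for groups 5 to 8 (4 genes). For groups 9 to 13 the median was -0.14, over only HOXC9, HOXD9 and HOXD10.

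HOXD9, a gene of the lumbar and limb range of the axis, had 116, 86.5 and 102 CPM in control replicates 1 to 3 and 78.6, 56.2 and 66.7 CPM in treated replicates 1 to 3. Every treated library was below every control library. The log2 fold change was -0.59 (standard error 0.15, adjusted p = 0.159 in edgeR's quasi-likelihood test), and HOXD9 was called by 4 of 15 alternative analyses, with adjusted p-values from 0.00452 to 0.648. HOXD3, a 3′ member also linked to cell adhesion, had 64.9, 62.7 and 55.0 CPM in control and 47.9, 47.1 and 49.7 CPM in treated libraries. The groups did not overlap here either, and the log2 fold change was -0.33 (standard error 0.12, adjusted p = 0.410 in edgeR's test). HOXC5 went the other way, with 2.63, 1.88 and 2.16 CPM in control and 4.69, 3.10 and 3.25 CPM in treated libraries, without overlap, a log2 fold change of 0.72 and an adjusted p = 0.401 in edgeR's test. These were the 3 of 11 genes whose groups did not overlap, as was the case for 13.9% of all genes tested and 14.1% of those above the filter in all 12 libraries.

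The remaining members varied within the groups. HOXC4 had 26.3, 15.1 and 10.4 CPM in control and 22.6, 19.7 and 22.0 CPM in treated libraries, and HOXC6, its 5′ neighbour but one, had 13.8, 8.93 and 6.20 CPM in control and 11.9, 9.55 and 9.89 CPM in treated libraries. Control replicate 1 was highest for both genes and control replicate 3 lowest, so that the treated libraries lay inside the range of the controls. The share of HOX counts on HOXC was 13.6%, 9.64% and 7.12% in the control and 14.8%, 14.4% and 15.0% in the treated libraries, and the groups did not overlap. The summed level of HOXC did overlap, with 47.0, 29.5 and 22.5 CPM in control and 43.1, 36.0 and 38.0 CPM in treated libraries. That of HOXD was 299, 277 and 294 CPM in control and 249, 215 and 215 CPM in treated libraries. In the pre-treatment experiment the HOXC share was 12.3%, 11.9% and 10.4% in control and 9.98%, 9.76% and 8.78% in treated libraries. These shares were not tested. HOXC9, the 5′ end of expressed HOXC, had 3.51, 2.96 and 2.89 CPM in control and 3.38, 2.84 and 2.33 CPM in treated libraries. HOXD1, the 3′ end of HOXD, had 4.42, 4.84 and 3.71 CPM in control and 3.80, 3.71 and 3.77 CPM in treated libraries. The control and treated libraries overlapped for both genes. HOXC8, HOXD4, HOXD8 and HOXD10 had log2 fold changes of -0.25 to -0.04. The counts of HOXD11 (2 to 10 in a library), HOXD12 (0 to 4) and HOXD13 (2 to 8) were under the filter.

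**Figure D2:**
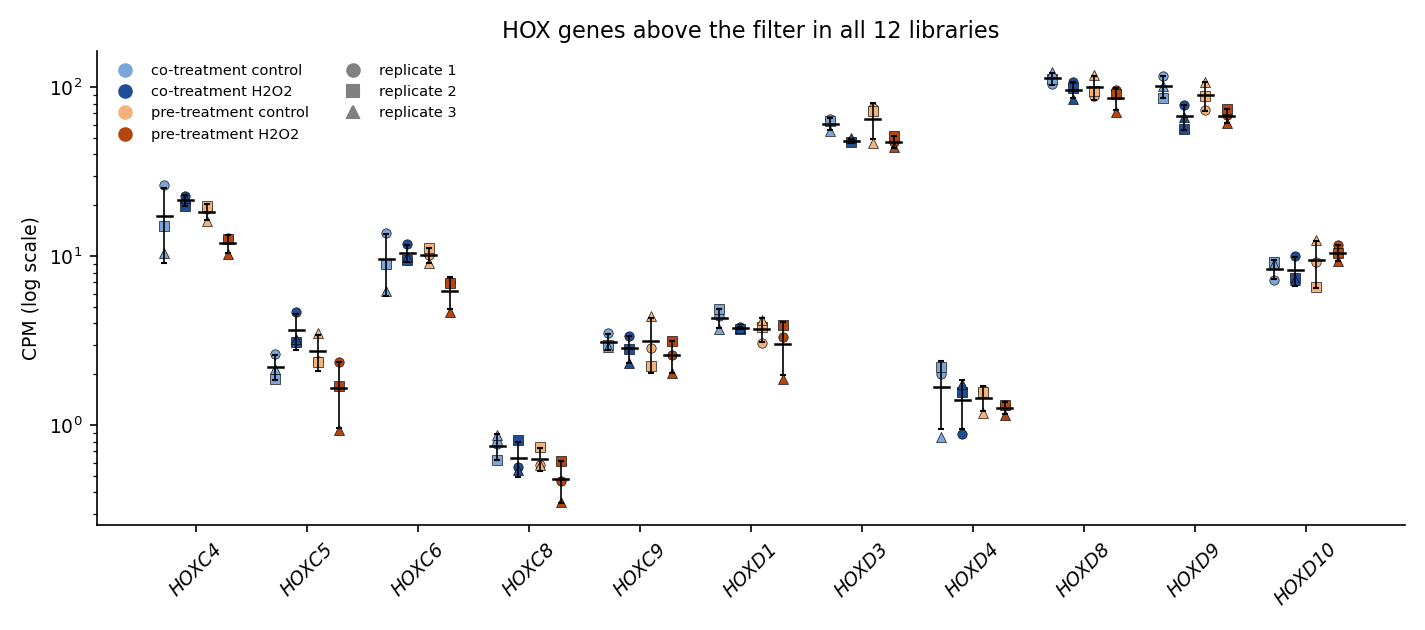
CPM on a log scale of the 11 HOX genes above the filter in all 12 libraries, 1 point for each library, coloured by group and shaped by replicate, with the mean (line) and SD (bar, n = 3) of each group. HOXC4 and HOXC6 lie lower in pre-treated cells than in their controls, HOXD9 and HOXD3 lie lower in co-treated cells than in theirs, and pre-treatment treated replicate 3 (dark orange triangle) has the lowest value of the 12 libraries for 8 of the 11 genes.

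The pre-treatment comparison asks how H2O2 given before differentiation changes expression after it. Over all 6 libraries, of the 11 genes above the filter in all 12 libraries, the 5 HOXC genes and 5 of the 6 HOXD genes had lower values in treated cells, and none passed the threshold. Among 24743 genes tested with edgeR's quasi-likelihood test, 0.0242% were called and 11.2% had an unadjusted p under 0.05. Of the 13 HOX genes tested, 0 were called and 3 had an unadjusted p under 0.05 (HOXC4, HOXC6 and HOXD11), or 2 of the 11 above the filter in all 12 libraries. HOXD11 and HOXD13 are among the 13 only through the filter's minimum being met in control libraries, so the medians below keep to the 11 genes above the filter in all 12 libraries. Their median log2 fold change was -0.38, with -0.59 for HOXC and -0.23 for HOXD, against 0.03 over the 17977 genes that met the same condition. By position it was -0.34 for groups 1 to 4 (4 genes) and -0.53 for groups 5 to 8 (4 genes). For groups 9 to 13 it was -0.27, over only HOXC9, HOXD9 and HOXD10. Without treated replicate 3 alone, log2 fold changes were -0.50 for HOXC4, -0.42 for HOXC5, -0.52 for HOXC6, -0.20 for HOXC8 and -0.13 for HOXC9. They were -0.02 for HOXD1, -0.36 for HOXD3, -0.11 for HOXD4, -0.09 for HOXD8, -0.32 for HOXD9 and 0.24 for HOXD10. Each negative value lay closer to no change than over all 6 libraries. This follows by construction, since treated replicate 3 was the lowest of the 6 libraries for 10 of the 11 genes.

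HOXC4 had 19.1, 19.8 and 16.1 CPM in control replicates 1 to 3 and 12.8, 12.7 and 10.3 CPM in treated replicates 1 to 3. HOXC6 had 10.2, 11.2 and 9.07 CPM in control and 7.01, 6.93 and 4.64 CPM in treated libraries. For both genes every treated library lay below every control library, control replicate 3 included. The log2 fold change of HOXC4 was -0.59 (standard error 0.18, adjusted p = 0.320 in edgeR's test) and that of HOXC6 was -0.68 (standard error 0.23, adjusted p = 0.338). HOXC5 had 2.39, 2.36 and 3.50 CPM in control and 2.35, 1.70 and 0.939 CPM in treated libraries. Its groups did not overlap, by a narrow margin, and the log2 fold change was -0.70 (standard error 0.39, adjusted p = 0.538 in edgeR's test). In all, 3 of the 11 genes had groups that did not overlap, against 16.4% of all genes tested and 19.1% of the genes above the filter in all 12 libraries. HOXC9 had 2.85, 2.23 and 4.42 CPM in control and 2.59, 3.16 and 2.03 CPM in treated libraries, and the groups overlapped.

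HOXD3 had 75.0, 72.7 and 46.8 CPM in control and 47.3, 51.5 and 44.1 CPM in treated libraries. Control replicates 1 and 2 stood above all treated libraries, and control replicate 3 lay among the treated ones. The log2 fold change was -0.41 (standard error 0.20, adjusted p = 0.485 in edgeR's test) over 6 libraries and -0.56 (standard error 0.11, adjusted p = 0.0106) without control replicate 3. The 2 control libraries with the most reads outside genes had the highest HOXD3 of the 12. Treated replicate 3, next with 0.462 reads outside genes per read on a gene, had the lowest HOXD3. Counts on HOXD3 per count on HOXD8 stood at 0.851 and 0.769 for control replicates 1 and 2, whereas control replicate 3 had 0.394 and the other 9 libraries had 0.449 to 0.624. HOXD-AS1, a noncoding RNA that lies opposite to part of HOXD1 and HOXD3, had 47.1 and 49.1 CPM in the same pair, whereas control replicate 3 had 22.5 CPM and the treated libraries had 20.5 to 24.6 CPM. The part of the reads outside genes in these differences was not tested. HOXD9 had 73.4, 88.6 and 107 CPM in control and 68.1, 73.9 and 61.1 CPM in treated libraries, HOXD1 had 3.06, 3.83 and 4.22 CPM in control and 3.30, 3.91 and 1.88 CPM in treated libraries, and both overlapped.

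**Figure D3:**
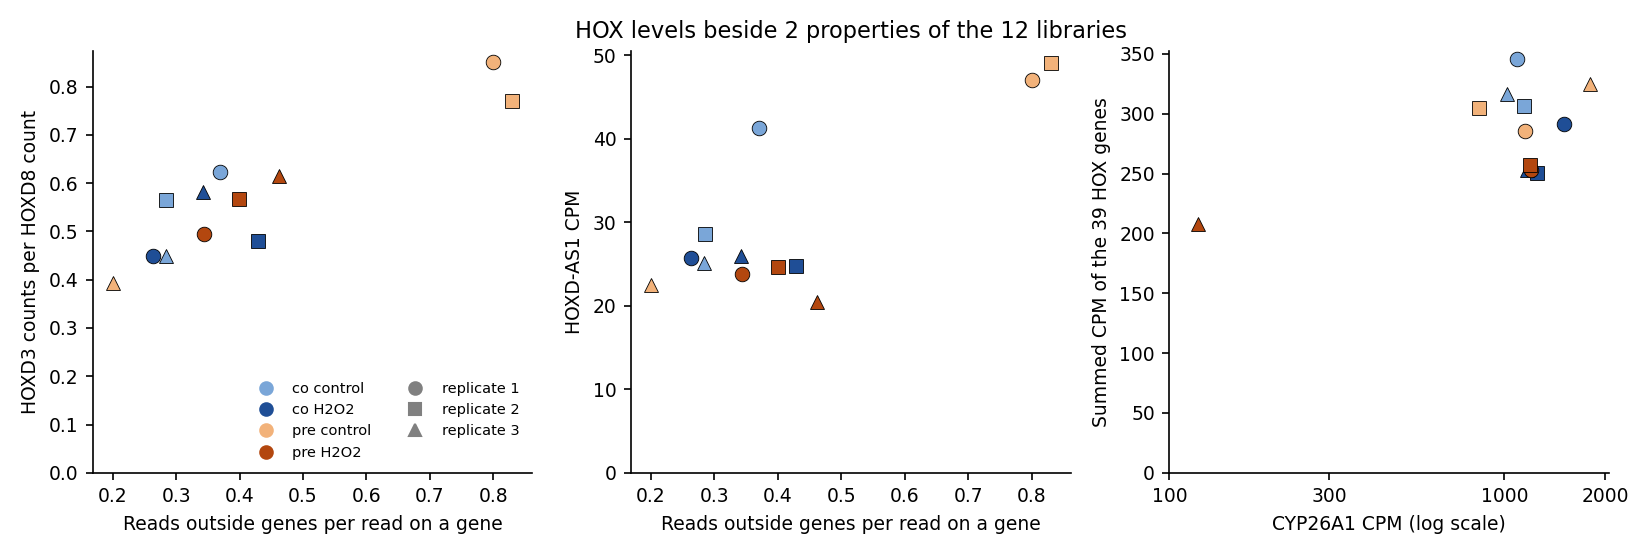
Each of the 12 libraries is 1 point, coloured by group and shaped by replicate. The left and middle panels plot HOXD3 counts per HOXD8 count and HOXD-AS1 in CPM against reads outside genes per read on a gene, and the right panel plots the summed CPM of the 39 HOX genes against CYP26A1 in CPM on a log scale. Pre-treatment control replicates 1 and 2 lie apart at the right of the left and middle panels, and pre-treatment treated replicate 3 lies apart at the left of the right panel, with 122 CPM of CYP26A1 and 208 CPM of HOX.

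Without control replicate 3, 4 of the 14 HOX genes tested were called, where 26.1% of 26350 genes were called and 12.8% were called lower. Of these, HOXD12, entered the test only through the control libraries in which it was high, which fixed its direction, so the counts that follow leave it out. Among the 11 genes above the filter in all libraries, 3 were called (HOXC4, HOXC6 and HOXD3), or 27.3%, against 32.1% called and 13.7% called lower of the 17977 genes. The share of HOX genes called was thus near that of all genes, and the direction was lower in each case. HOXC4 had a log2 fold change of -0.64 (standard error 0.16, adjusted p = 0.0222) and HOXC6 of -0.72 (standard error 0.22, adjusted p = 0.0432) in edgeR's quasi-likelihood test. The median over the 11 was -0.26, with -0.44 for HOXC and -0.15 for HOXD, against 0.13 over the 17977 genes. By position the medians were -0.41 for groups 1 to 4 (4 genes) and -0.42 for groups 5 to 8 (4 genes). For groups 9 to 13 the median was 0.10, over only HOXC9 (0.10), HOXD9 (-0.19) and HOXD10 (0.47). HOXD11 (-2.37), HOXD12 (-4.05) and HOXD13 (-2.23) are left out of it, since they passed the filter only through control libraries. No test of this order was made. HOXD10 had the highest log2 fold change of the 11, with 9.23 and 6.61 CPM in control replicates 1 and 2 and 11.6, 10.5 and 9.30 CPM in treated libraries, giving 0.47 with an adjusted p = 0.123 in edgeR's test, but control replicate 3 had 12.5 CPM, above all treated libraries. HOXD8, next but one on the 3′ side, had a log2 fold change of -0.01. Groups did not overlap for 6 of the 11 genes without control replicate 3, against 57.2% of all genes tested and 61.5% of the genes above the filter in all 12 libraries.

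The calls for HOXC4, HOXC6 and HOXD3 remained when treated replicate 3, the library with the low retinoic acid targets, was also left out, with log2 fold changes of -0.57, -0.58 and -0.54 and adjusted p-values of 0.0142, 0.0250 and 0.00770 in edgeR's test. Fits of this comparison with a further library left out called up to 8577 of all genes, against 6871 in the main fit. The 3 calls that remained therefore do not set the HOX genes apart from other genes. The 3 calls were lost without control replicate 1 (adjusted p = 0.0801, 0.112 and 0.0562 in edgeR's test) and without control replicate 2 (adjusted p = 0.127, 0.203 and 0.0648), each of which leaves 1 control library. HOXC4 and HOXC6 also lost their calls without treated replicate 1, without treated replicate 2 and in one fit over both experiments. Of 14 alternatives in all, HOXC4 and HOXC6 were called in 8 each and HOXD3 in 11. Treated replicate 3 was the lowest of the 6 pre-treatment libraries for 10 of the 11 HOX genes, and the lowest for 17.1% of the 17977 genes. Over all 12 libraries it was lowest for 8 of the 11, against 12.04% of the genes. With both libraries left out, HOXC5 had a log2 fold change of -0.19 (adjusted p = 0.606 in edgeR's test) and HOXD1 of 0.10. The part of the low retinoic acid targets in the low HOX levels of this library was not tested.

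The 5′ HOXD genes were at trace levels. HOXD12, a gene of the distal limb and the hindmost axis, had 8, 9 and 0 counts in pre-treatment control replicates 1 to 3 and 1, 0 and 1 counts in the treated replicates. Its log2 fold change of -4.05 (standard error 0.99, adjusted p = 0.0202 in edgeR's test without control replicate 3) rests on control replicates 1 and 2, through which it passed the filter, and a fitted change at such counts depends on the prior count used. HOXD11 had 6, 25 and 10 counts in control and 5, 6 and 3 counts in treated libraries, and HOXD13 had 8, 15 and 11 counts in control and 0, 2 and 9 counts in treated libraries. Scaled for depth, the groups of both genes did not overlap, as was the case for 16.4% of all genes tested. Their log2 fold changes over 6 libraries were -2.12 and -2.11 (adjusted p = 0.387 and 0.491 in edgeR's test). Both passed the filter only through control libraries, which favours lower treated values in advance. Single libraries set the size: HOXD11 was at -1.13 without control replicate 2, and HOXD13 at -3.82 without treated replicate 3. In the co-treatment experiment HOXD11 had 6, 6 and 10 counts in control and 8, 5 and 2 counts in treated libraries, HOXD12 had 1, 0 and 1 against 4, 0 and 1, and HOXD13 had 7, 6 and 8 against 6, 8 and 2. These counts overlapped between the groups.

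**Figure D4:**
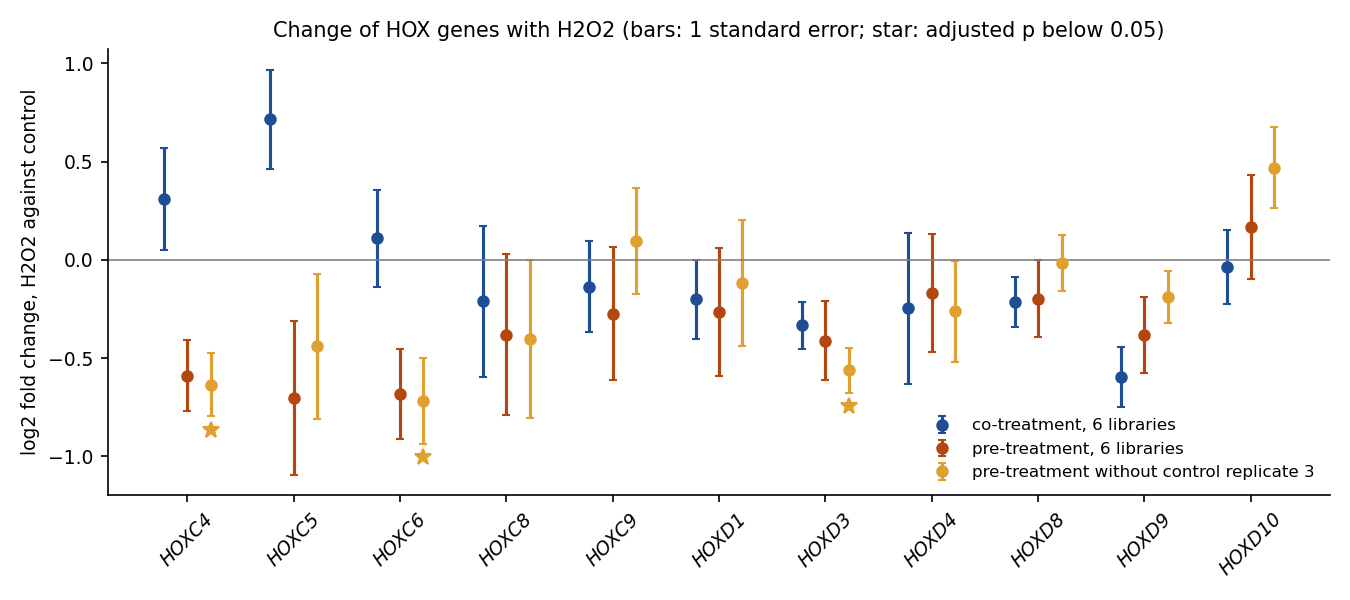
Log2 fold change of treated against control libraries, with 1 standard error, for the 11 HOX genes above the filter in all 12 libraries, in 3 comparisons by edgeR's quasi-likelihood test; a star marks an adjusted p under 0.05. HOXC4, HOXC5 and HOXC6 lie above 0 after co-treatment and below 0 after pre-treatment, and stars appear only for HOXC4, HOXC6 and HOXD3 without control replicate 3.

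The responses to the 2 protocols were also set against each other, as pre-treatment minus co-treatment. The genes at the 3′ end of HOXC gave the largest differences among those above the filter in all libraries, with -0.93 for HOXC4 (standard error 0.36), -1.45 for HOXC5 (standard error 0.46) and -0.82 for HOXC6 (standard error 0.37) on the log2 scale over 12 libraries. Their adjusted p-values were 0.538, 0.511 and 0.554 in edgeR's quasi-likelihood test. No HOX gene of 13 was called, among 24407 genes of which 0.0287% were, and these 3 were the ones with an unadjusted p under 0.05, as had 8.94% of all genes. Without pre-treatment control replicate 3 the differences were -1.001, -1.21 and -0.88 with adjusted p-values of 0.0937, 0.102 and 0.137, and 0 of 13 HOX genes were called against 8.02% of all genes. Without co-treatment control replicate 1 as well, HOXC4 and HOXC6 were called (adjusted p = 0.00219 and 0.0178 in edgeR's test), while the calls over all genes went from 2058 to 4499. Both genes were highest of the 12 libraries in that control, so leaving it out enlarges their differences by construction. Of 18 alternatives without pre-treatment control replicate 3, HOXC4 was called in 3 and HOXC6 in 2. The 6 HOXD genes from HOXD1 to HOXD10 had differences of -0.11 to 0.19 over 12 libraries.

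Of the 32 noncoding RNAs of the HOX clusters, 23 were found in the files and 4 were tested over the 6 libraries of each experiment. HOXD-AS1, the most abundant, had 41.3, 28.6 and 25.1 CPM in co-treatment control and 25.8, 24.7 and 25.9 CPM in co-treatment treated libraries, with a log2 fold change of -0.31 (adjusted p = 0.729 in edgeR's test). In the pre-treatment experiment its log2 fold change was -0.75 (adjusted p = 0.375) over 6 libraries and -0.997 (standard error 0.13, adjusted p = 0.00237) without control replicate 3. HOXD-AS1 was the 1 called of 5 tested in that last comparison, where 26.1% of all genes were called and 12.8% called lower. HOXD-AS2, an antisense RNA that overlaps HOXD8 and the start of HOXD3, ranged from 2.78 to 4.99 CPM. MIR10B, the microRNA gene between HOXD4 and HOXD8, was at 0.0914 to 0.408 CPM in this total RNA.

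Among the 9 TALE cofactors, MEIS1 fell after co-treatment. It had 137, 154 and 153 CPM in control and 96.6, 98.3 and 83.4 CPM in treated libraries, with no overlap, as was the case for 13.9% of all genes tested. The log2 fold change was -0.67 (standard error 0.12, adjusted p = 0.0307 in edgeR's test). MEIS1 was the 1 gene called of the 8 tested, where 0.598% of all genes were called. After pre-treatment MEIS1 had 136, 178 and 142 CPM in control and 172, 184 and 140 CPM in treated libraries, with a log2 fold change of 0.15 (adjusted p = 0.777). The difference of the responses was 0.79 over 12 libraries (adjusted p = 0.398) and 0.76 without pre-treatment control replicate 3 (adjusted p = 0.0386), where 8.02% of all genes were called. Of the 9 tested after pre-treatment none was called over 6 libraries. Without control replicate 3, 0 were called higher and 2 lower, among them PKNOX1 (log2 fold change -0.52, adjusted p = 0.0213 in edgeR's test). That comparison called 26.1% of all genes, and 12.8% lower.

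Of the 21 genes of retinoic acid metabolism and signalling, 18 were tested after co-treatment and none was called. The smallest adjusted p-values in edgeR's test were those of RDH10 (log2 fold change 0.78, adjusted p = 0.0693) and ALDH1A2 (1.38, adjusted p = 0.1001), which make retinoic acid from retinol. After pre-treatment, 0 of 19 were called over 6 libraries, and 2 higher and 6 lower without control replicate 3, where 26.1% of all genes were called and 12.8% called lower. RDH10 rose by 1.49 on the log2 scale (adjusted p = 0.00478), and the receptor gene RARA (-1.19, adjusted p = 0.00469), the retinol transporter gene STRA6 (-0.75, adjusted p = 0.0228) and RET (-1.17, adjusted p = 0.0254) fell. The summed level of the 21 genes was 9753 to 9935 CPM in pre-treatment control and 2107 to 7051 CPM in treated libraries, with treated replicate 3 lowest, and the part of that library in these changes was not tested.

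Of 18 tested chromatin regulators of HOX clusters, none was called after co-treatment or after pre-treatment over 6 libraries. Without control replicate 3, where 26.1% of all genes were called and 12.8% called lower, 1 was called higher and 6 lower, among them the H3K27 demethylase gene KDM6B (log2 fold change -3.07, adjusted p = 0.000813), the H3K4 methyltransferase genes KMT2B (-2.05, adjusted p = 0.00103) and KMT2A (-1.78, adjusted p = 0.00125), and the Polycomb gene PCGF2 (-1.63, adjusted p = 0.00256), all by edgeR's test. With control replicate 3 included, the log2 fold changes of these genes were -2.58, -1.65, -1.36 and -1.26. Of the 16 genes that flank the clusters, 14 were tested and 0 were called in either experiment over 6 libraries, while 6 were called higher and 1 lower (CBX5, log2 fold change -0.90, adjusted p = 0.00311) without control replicate 3, beside 26.1% of all genes called in either direction. The smallest adjusted p-values among the higher ones were those of ATP5G3 (log2 fold change 0.81), ATP5G1 (0.85) and ATP5G2 (0.66), which code for the same subunit of the mitochondrial ATP synthase. The 11 ParaHox and neighbouring homeobox genes had a summed level of 0.321 to 1.25 CPM, and EVX2, the gene next to HOXD13, was at 0.0213 to 0.213 CPM.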

How the data were processed

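Stranded libraries of total RNA, from which ribosomal RNA had been removed, were sequenced. Per the labels and the study's methods, the authors trimmed reads with cutadapt 2.10, mapped them to hg19 with HISAT2 2.1.0 and made counts per gene symbol with HTSeq 0.7.2 (versions from the submitters' processing notes). The deposited counts are raw, 1 library per file. The strand setting and annotation version are not given in the sources used here. The 5 closing entries for reads not counted on a gene, which held 40.0% to 59.9% of all entries in a library, were kept out of library sizes. The 2 deposited tables of the authors' comparisons (log2 fold changes, mean log2 CPM, p-values and FDR) were not used.

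Counts were analysed with R 4.3.3 and edgeR 4.0.16. Genes entered a comparison when they reached the CPM of 5 counts in the smallest library (0.181 for co-treatment and 0.120 for pre-treatment) in at least the number of libraries in the smaller group. The comparisons used edgeR's quasi-likelihood test with TMM factors, adjusted by Benjamini-Hochberg over all genes tested, and called at an FDR below 0.05. The responses were compared as the interaction of treatment and protocol. On simulated counts, 89.0% to 100% of 200 genes changed by a log2 value of 2 were recovered, and 6 to 10 unchanged genes were called. The simulation gave all genes the same dispersion of 0.05, held no library that stood apart, and changed only well-counted genes. It does not measure the power for changes as small as those of most HOX genes or at the spread of these libraries. Exon lengths and hg19 positions come from a GENCODE annotation lifted to that build. The members, gene lists, tests and the omission of control replicate 3 were chosen with earlier results of these data known. Every-library values were given for members called in a comparison, highest in a cluster, at the ends of the expressed stretch or without overlap between groups, and genes of other lists were named by smallest adjusted p, except some that are not reported here. DESeq2 1.42.0 was among the alternatives. Replicates of a group differed by more than counting error (chi-square per degree of freedom 24.8 to 545), so no library was counted as a duplicate.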

Additional observations from a re-analysis of the deposited data

Results flagged for a closer look

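HOXC5 was picked out because its control and treated libraries did not overlap in either experiment and lay in opposite directions, with log2 fold changes of 0.72 for co-treatment and -0.70 for pre-treatment. The difference of the responses was -1.45 (standard error 0.46, adjusted p = 0.511 in edgeR's quasi-likelihood test), so it did not pass the threshold. After pre-treatment the nearest control and treated values were 2.36 and 2.35 CPM, and 67.3% of the exon length of HOXC5 is shared with other genes on the same strand.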

How the results depend on the processing

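The count of HOX genes called after co-treatment was 0 in the analysis reported and 1, namely HOXD9, with edgeR's exact test, with DESeq2 and without a filter on low counts, and it was 0 to 0 with each library left out. Over all 6 pre-treatment libraries the count was 0 in each alternative except without control replicate 3, and ranged from 0 to 4 with each library left out. Without control replicate 3, the count of 4 became 1 (HOXD3) with one fit over both experiments and 1 (HOXD12) with a log2 fold change above 1 added to the threshold, and it ranged from 0 to 5 with a further library left out. It was 1 when control replicate 1 and 0 when control replicate 2 was left out, and 1 or 2 when treated replicate 1 or 2 was. HOXD12 received no adjusted p from DESeq2. For the difference of the responses the count was 0 in each alternative over 12 libraries. Without pre-treatment control replicate 3 it was 1 (HOXC4) with DESeq2 and 2 (HOXC4 and HOXC6) without a filter, and ranged from 0 to 2 with a further library left out, the 2 arising without co-treatment control replicate 1.

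With the replicate block, which uses the replicate number as a pairing, 1 HOX gene (HOXD9) was called after co-treatment, 0 over 6 pre-treatment libraries, 6 without control replicate 3 and 0 for either difference. Over all genes, alternatives called up to 535 after co-treatment and up to 10755 without control replicate 3. The share called with the block itself is not given here, so these HOX counts cannot be judged against it. The labels share only the numbers, and deviations of same-numbered libraries correlated by 0.0255, -0.0401 and -0.102 in the co-treatment and by -0.233, 0.0458 and -0.269 in the pre-treatment experiment, so the numbers were not taken to pair the cultures. The share of HOX counts on HOXD in co-treated cells was 85.2%, and 86.0% per kilobase. Of 1031 refits of single HOX genes, 994 kept their side of the threshold, 19 passed it newly, 18 no longer passed it, and none turned the direction of a called change. Over all genes the calls ranged from 3 to 535 around 132 after co-treatment, from 0 to 6871 around 6 over 6 pre-treatment libraries, from 1677 to 10755 around 6871 without control replicate 3, and for the difference from 0 to 2058 around 7 and from 321 to 4499 around 2058. The cause of these shifts was not tested. Depth limits HOXA, HOXB and the 5′ HOXD genes, whose counts lie at or near the floor of 3 counts in a library, and counting intervals do not cover the spread between cultures.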
